A study of Homo sapiens with 12 samples.

Results

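The respiratory chain genes described here are the nuclear genes named as subunits of complexes I to V and the 13 mRNAs of the mitochondrial genome. Nuclear members were taken by symbol: NDUFA, NDUFB, NDUFC, NDUFS and NDUFV genes with a number, SDHA to SDHD, genes whose symbols begin with UQCR, COX4 to COX8 or ATP5, and CYC1. Pseudogenes, antisense RNAs, read-through genes and copies on alternate loci were left out. This gave 101 genes, 88 nuclear and 13 mitochondrial, of 49651 gene entries with counts. By complex, the nuclear genes number 36 in complex I, 4 in complex II, 10 in complex III, 19 in complex IV and 19 in complex V, and the mitochondrial ones 7, 0, 1, 3 and 2. NDUFA4 and its relative NDUFA4L2 were placed with complex IV, since NDUFA4 protein is a subunit of cytochrome c oxidase.

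RNA was sequenced from D283, a medulloblastoma cell line with amplified MYC, in 2 groups. The control group carried a scrambled construct, and in the other group the tyrosine kinase genes ABL1 and ABL2 had been inactivated genetically. The labels do not state how this was done, nor if replicates are separate cultures or clones. The p-values therefore reflect the spread among these libraries alone, which may be technical. Each group has 3 libraries, sequenced on 2 lanes each. All cells grew in the same medium, and the labels name no further agent.

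The respiratory chain passes electrons from NADH (complex I) and succinate (complex II) through coenzyme Q, complex III and cytochrome c to oxygen at complex IV, and ATP synthase (complex V) uses the resulting proton gradient to make ATP. Complexes I, III, IV and V are built from subunits of both genomes, and complex II from nuclear subunits alone. The mitochondrial mRNAs are transcribed by a dedicated polymerase as long precursors that are cut at tRNAs, whereas each nuclear subunit has a gene and promoter of its own. Medulloblastomas with amplified MYC belong mostly to Group 3, and MYC and the factors NRF1, GABP and YY1 are known to act on promoters of nuclear respiratory genes.

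Libraries held 33505903 to 49034159 counts. Levels are given as CPM, counts scaled to library size after TMM (trimmed mean of M values) normalization, and means carry the SD over the 3 libraries. As a check of the labels, ABL1 fell from 153 ± 4.82 CPM (control, n = 3) to 61.9 ± 0.625 CPM (inactivated, n = 3), and ABL2 from 138 ± 5.58 to 104 ± 7.60 CPM. Of 7 Group 3 markers 5 were at or above 1 CPM, and 4 blood markers summed to at most 0.0602 CPM in any library, with CD3E and HBB at 0. Replicates within a group differed beyond sampling noise, with a chi-square of 3.17 to 13.6 for each degree of freedom, against 1.13 to 1.21 between the lanes of a library. In bulk RNA, fewer cells of a type and less RNA per cell cannot be told apart.

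Inactivated replicate 2, the deepest library, stood apart from its group for these genes. It had the lowest level of the 3 inactivated libraries for 68 of the 71 nuclear genes tested and the highest for 13 of 13 mitochondrial mRNAs. Over all 14704 genes tested it was lowest for 5745 and highest for 5291. Among the 7119 genes with a mean of at least 20 CPM it was lowest for 3257 and highest for 2421. Counts of called genes are therefore given with and without it.

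Many promoters of the nuclear genes share sequence features that the choice by name did not use. RefSeq promoters (GRCh38.p14, 250 bases before to 50 after the start) were matched for 71 of the 88 nuclear genes. The NRF1 motif GCGCANGCG, searched on both strands, stood in 22 of the 71 (31.0%), beside 11.0% of all 15843 promoters in the table. The ETS motif CCGGAAGT bound by GABP stood in 10 (14.1%, beside 6.19%) and the YY1 motif AAGATGGCG in 8 (11.3%, beside 2.74%), while the SP1 motif GGGCGG (59.2%, beside 58.5%) and TATAAA (9.86%, beside 9.63%) were about as frequent as elsewhere. At least 1 of the NRF1, ETS or YY1 motifs was found in 47.9% of these promoters and in 18.1% of all. Promoters of 4 genes are printed 5′ to 3′ on the gene's strand, the 250 bases before the start, to show genes that moved in each direction, with and without such matches; capitals mark NRF1 and ETS matches. SDHA and ATP5MC1 lie on the forward strand, UQCRC1 and ATP5PD on the reverse strand.
SDHA chr5:218070-218319: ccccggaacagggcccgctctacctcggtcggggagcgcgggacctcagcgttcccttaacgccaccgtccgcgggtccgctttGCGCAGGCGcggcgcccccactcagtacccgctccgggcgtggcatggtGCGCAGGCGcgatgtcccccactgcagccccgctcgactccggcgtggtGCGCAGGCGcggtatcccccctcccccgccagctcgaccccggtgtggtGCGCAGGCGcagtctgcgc
UQCRC1 chr3:48609647-48609896: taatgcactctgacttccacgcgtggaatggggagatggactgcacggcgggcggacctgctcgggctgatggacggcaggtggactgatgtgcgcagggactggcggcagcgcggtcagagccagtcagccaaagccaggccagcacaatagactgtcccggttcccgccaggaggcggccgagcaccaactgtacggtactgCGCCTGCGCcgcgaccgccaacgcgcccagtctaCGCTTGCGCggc
ATP5PD chr17:75046970-75047219: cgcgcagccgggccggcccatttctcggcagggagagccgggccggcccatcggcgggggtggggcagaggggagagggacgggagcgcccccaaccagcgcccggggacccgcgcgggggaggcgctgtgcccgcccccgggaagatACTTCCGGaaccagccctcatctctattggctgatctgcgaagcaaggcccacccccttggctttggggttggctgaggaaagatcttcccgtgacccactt
ATP5MC1 chr17:48892537-48892786: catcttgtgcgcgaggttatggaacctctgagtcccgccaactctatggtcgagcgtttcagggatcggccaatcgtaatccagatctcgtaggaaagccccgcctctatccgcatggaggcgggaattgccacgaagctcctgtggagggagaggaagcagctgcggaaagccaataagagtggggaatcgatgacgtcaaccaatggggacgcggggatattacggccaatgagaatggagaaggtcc
SDHA, which was lower in the inactivated cells, has 4 NRF1 matches, UQCRC1, which was higher, has 2 NRF1 matches, ATP5PD, also higher, has 1 ETS match, and ATP5MC1, the gene with the largest increase, has none of these in the stretch shown. Across all matched promoters, the NRF1 motif stood in 3 of 10 genes that rose, 4 of 9 that fell and 12 of 38 tested genes that passed in neither direction. A match is a string of letters and not a measured binding site.

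Most nuclear respiratory chain genes differed little between the groups. Of the 88, 71 passed the filter on low counts, and of these 14 rose and 9 fell in the inactivated cells by edgeR's quasi-likelihood test at an adjusted p under 0.05. Over all 14704 genes tested, 59.3% were called, 29.5% higher and 29.8% lower, and among genes with a mean of at least 20 CPM 66.0% were called. The median log2 fold change (inactivated over control) of the 71 was 0.02 and its median size 0.09, beside a median size of 0.27 over all genes tested and 0.19 over genes of at least 20 CPM. Of the 71, 61 lay within 0.2 of no change on the log2 scale, and ATP5MC1 and COX7A2 were the ones both called and past 1.5-fold, beside 23.9% of all genes tested. When the null was a fold of 1.5, ATP5MC1 alone remained past the threshold (adjusted p = 0.00475; COX7A2, 0.0907), beside 15.5% of all genes. The libraries of the groups did not overlap for 22 of the 71, beside 63.2% of all genes tested and 69.0% of those of at least 20 CPM; 13 of the 22 were higher (31.4% of all genes) and 9 lower (31.9%).

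Without inactivated replicate 2, 30 nuclear genes were called higher and 6 lower, beside 29.3% and 29.4% of all genes tested in that fit, so the split between directions depends on that library. Without inactivated replicate 1 the counts were 9 and 15, and without inactivated replicate 3 they were 8 and 8. Of all genes tested in those fits, 56.6% and 54.3% were called in either direction. The summed level of the 71 genes was 7999, 8177 and 8277 CPM in the control and 8919, 8055 and 8641 CPM in the inactivated libraries, and the groups overlapped through inactivated replicate 2. By complex, the nuclear counts were 3 higher and 5 lower of 29 in complex I, 0 and 1 of 3 in complex II, 2 and 1 of 9 in complex III, 1 and 1 of 13 in complex IV, and 8 and 1 of 17 in complex V. Without inactivated replicate 2 they were 9 and 3, 1 and 1, 4 and 0, 4 and 1, and 12 and 1. The count of complex I genes called lower was 8 without inactivated replicate 1 and 3 without control replicate 2 or control replicate 3. Without control replicate 2, 52.7% of all genes tested were called in either direction, and without control replicate 3, 54.2%. Differences between the complexes were not tested.

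**Figure D1:**
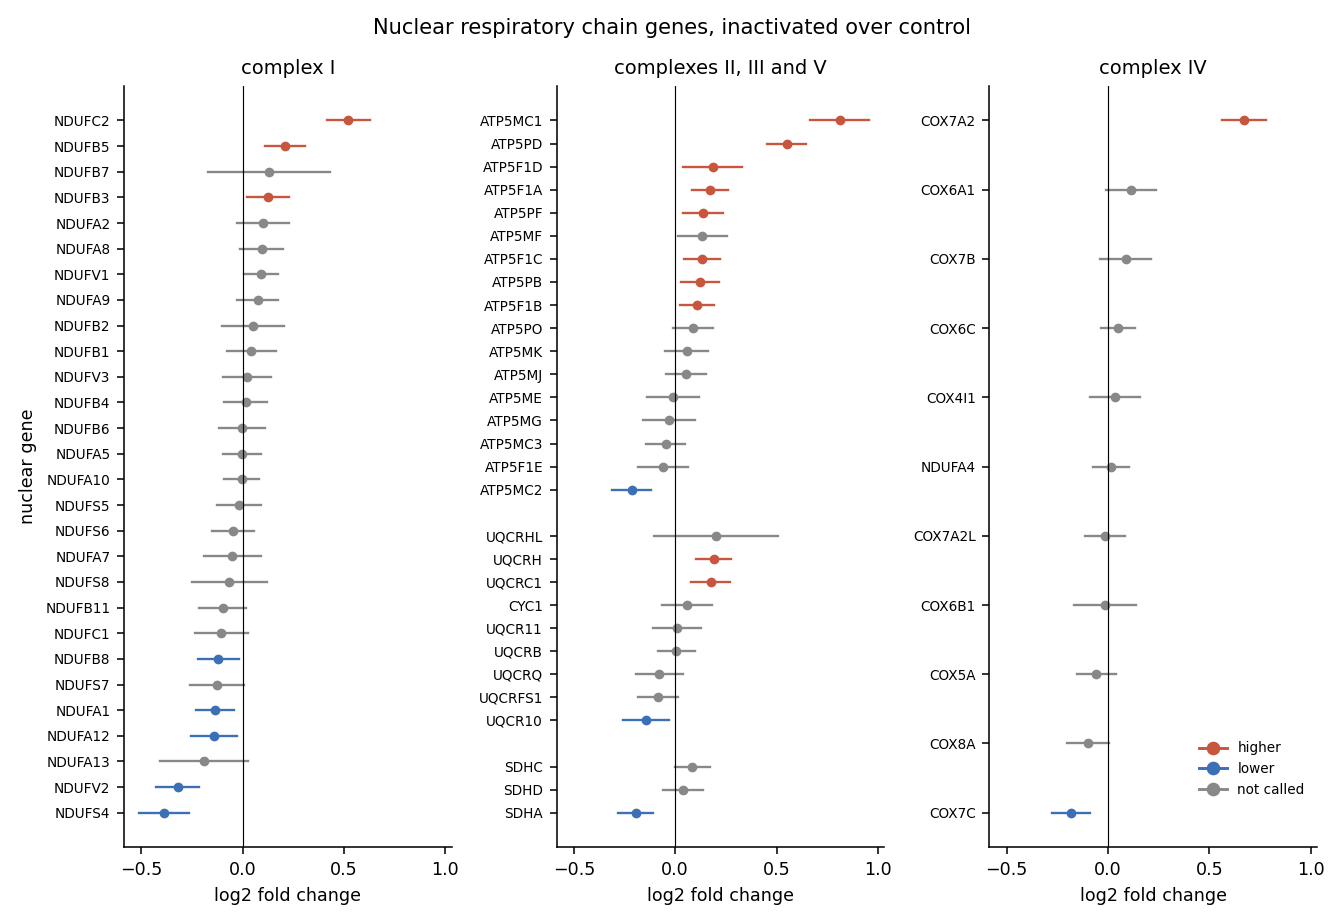
Log2 fold change (inactivated over control, dots) with its 95% interval (lines) from edgeR for nuclear genes tested, by complex; red, called higher, blue, called lower, grey, not called. COX4I2 and NDUFA4L2 are among the genes not drawn; most genes lie within 0.2 of 0, and ATP5MC1, COX7A2, ATP5PD and NDUFC2 stand to the right.

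In complex I, NDUFC2 rose and NDUFS4 and NDUFV2 fell. NDUFC2, an accessory subunit of the membrane arm (chr11:78068297-78079862, reverse strand, build GRCh38.p14), was at 38.4, 41.4 and 39.5 CPM in the control and 60.2, 55.1 and 56.0 CPM in the inactivated libraries. All inactivated libraries lay above all control libraries, with a log2 fold change of 0.52 ± 0.051 (SE; adjusted p = 1.38e-08 by edgeR's quasi-likelihood test, as for all adjusted p-values below unless named). Exons of other entries (NDUFC2-KCTD14 and THRSP) cover 22.3% of its exon bases, and the strand setting of the counting is not known, so part of its counts may belong to them; its 50 nearest tested genes on each side had a median of -0.02. NDUFB5 and NDUFB3, also of the membrane arm, rose by less, with log2 fold changes of 0.21 ± 0.047 (adjusted p = 0.000661) and 0.13 ± 0.0498 (adjusted p = 0.033). NDUFB5 had 57.8, 59.5 and 57.2 CPM in the control and 70.9, 64.9 and 66.0 CPM in the inactivated libraries. NDUFB3 had 48.0, 48.8 and 51.8 CPM against 55.4, 51.6 and 55.4 CPM. The groups did not overlap for NDUFB5 and did for NDUFB3, whose call was lost when control replicate 1 (adjusted p = 0.0967), control replicate 2 (0.12), inactivated replicate 1 (0.0896) or inactivated replicate 3 (0.122) was left out.

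NDUFS4, an accessory subunit of the NADH-oxidizing arm whose loss causes Leigh syndrome, had 30.6, 32.3 and 32.1 CPM in the control and 25.8, 22.9 and 24.1 CPM in the inactivated libraries. Every inactivated library was below every control library, and the log2 fold change was -0.39 ± 0.059 (adjusted p = 7.84e-06). NDUFV2, a core subunit of the same arm that holds an iron-sulfur cluster, had 65.8, 72.5 and 74.3 CPM against 56.8, 54.9 and 59.0 CPM. It fell without overlap, with a log2 fold change of -0.32 ± 0.051 (adjusted p = 1.4e-05). Among other core subunit genes, NDUFV1, NDUFS7 and NDUFS8 were not called, with log2 fold changes of 0.09, -0.13 and -0.07 (adjusted p = 0.0609, 0.102 and 0.53).

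NDUFA12, NDUFA1 and NDUFB8 fell by small amounts, with log2 fold changes of -0.14 (adjusted p = 0.0342), -0.14 (adjusted p = 0.012) and -0.12 (adjusted p = 0.0425). NDUFA12 is an accessory subunit of the peripheral arm and had 83.1, 84.4 and 89.7 CPM in the control and 81.3, 70.4 and 81.99 CPM in the inactivated libraries. NDUFA1, a small membrane-arm subunit encoded on chromosome X, had 75.4, 77.2 and 78.7 CPM against 72.0, 68.1 and 70.7 CPM. The groups did not overlap for these 2 genes, although the nearest libraries of NDUFA12 differed by little. NDUFB8, a membrane-arm subunit often used on blots as a sign of assembled complex I, had 85.2, 89.7 and 93.9 CPM against 87.6, 78.8 and 81.3 CPM, with overlap. Without inactivated replicate 2 the calls of NDUFA12 (adjusted p = 0.21) and NDUFB8 (adjusted p = 0.135) were lost; without control replicate 3 they were lost too (0.118 and 0.16), as without control replicate 2 (0.0586 and 0.0953), and that of NDUFB8 also without inactivated replicate 3 (0.137). Summed over 29 nuclear genes, complex I mRNA was 1894, 1935 and 1988 CPM in the control and 2025, 1810 and 1947 CPM in the inactivated libraries, which overlapped.

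SDHA was lower among the genes of complex II. SDHA encodes the flavoprotein that oxidizes succinate (chr5:218320-268746, forward strand) and had 114, 110.5 and 114 CPM in the control and 98.3, 96.5 and 101 CPM in the inactivated libraries. It fell without overlap, with a log2 fold change of -0.20 ± 0.041 (adjusted p = 0.000347). SDHC and SDHD, the membrane anchors, were not called, with log2 fold changes of 0.08 (95% interval -0.0023 to 0.17) and 0.04 (-0.06 to 0.14). SDHC was nonetheless higher without overlap, at 152, 153 and 149 CPM in the control and 168, 156 and 157 CPM in the inactivated libraries. Without inactivated replicate 2 it was called higher (0.11, adjusted p = 0.0279). SDHB, the iron-sulfur subunit, had 2 to 4 counts per library and was not tested, while an entry for the same gene on an alternate locus had 389 to 437 counts in the control and 398 to 558 in the inactivated libraries. SDHA has near-identical pseudogene copies, and the treatment of multi-mapping reads in the counting is not known.

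In complex III, UQCRC1 and UQCRH rose and UQCR10 fell. UQCRC1, a core protein of the matrix side, had 139, 144 and 147 CPM in the control and 169, 150.1 and 166 CPM in the inactivated libraries, a log2 fold change of 0.17 ± 0.046 (adjusted p = 0.00277). UQCRH, the hinge protein that contacts cytochrome c1, had 201, 203 and 212 CPM against 242, 226 and 235 CPM, a log2 fold change of 0.19 ± 0.041 (adjusted p = 0.000452). Both rose without overlap between the groups. UQCRHL, a near-identical copy of UQCRH, was at 2.67 to 4.09 CPM and was not called (log2 fold change 0.20, adjusted p = 0.25), and reads could have been split between the copies. UQCR10, a small subunit, had 72.1, 75.1 and 77.3 CPM against 70.7, 61.6 and 71.5 CPM, a log2 fold change of -0.14 ± 0.054 (adjusted p = 0.0283). Its groups were close to each other, and its call was lost without inactivated replicate 2 (adjusted p = 0.19), control replicate 2 (0.0751) or control replicate 3 (0.0879). CYC1, which carries the heme of cytochrome c1, had a log2 fold change of 0.06 (adjusted p = 0.41), and UQCRFS1, the Rieske iron-sulfur protein, -0.08 (adjusted p = 0.13).

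In complex IV, COX7A2 rose, COX7C fell and 11 of 13 nuclear genes tested passed in neither direction. COX7A2, the broadly expressed form of subunit 7A (chr6:75237675-75250298, reverse strand), had 122, 131 and 133 CPM in the control and 223, 194 and 199 CPM in the inactivated libraries. The lowest inactivated library was well above the highest control library, and the log2 fold change was 0.67 ± 0.051 (adjusted p = 7.26e-10). COX7C, a small membrane subunit, had 211, 212 and 212 CPM against 198, 173 and 189 CPM, and fell without overlap, with a log2 fold change of -0.18 ± 0.046 (adjusted p = 0.00153). COX4I1, the main form of the subunit that binds regulatory nucleotides, had a log2 fold change of 0.04 (95% interval -0.09 to 0.16), and NDUFA4 one of 0.02 (-0.07 to 0.11). COX8A, at 72.9, 74.0 and 78.8 CPM against 72.8, 65.7 and 72.5 CPM, was not called (adjusted p = 0.0894).

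Tissue-specific forms of complex IV subunits were nearly silent. COX6A2 and COX7A1, the heart and muscle forms, had 0 counts in all libraries except 1 count of COX7A1, where a count of 0 allows up to 3 counts or 0.0612 to 0.0895 CPM. The testis forms COX6B2 and COX7B2 had 3 to 15 and 0 to 2 counts, and COX8C had 0, although COX8C also has an entry on an alternate locus. COX4I2, the form of subunit 4 known from lung and from low oxygen, had 0.113, 0.547 and 0.211 CPM in the control and 0.465, 0.484 and 0.351 CPM in the inactivated libraries and was not called (adjusted p = 0.245). NDUFA4L2, a gene known to respond to low oxygen, had 1.13 to 1.57 CPM in the control and 1.26 to 1.37 CPM in the inactivated libraries (adjusted p = 0.982).

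In ATP synthase, 8 of 17 nuclear genes tested rose and ATP5MC2 fell. This is 52.9% called, beside 59.3% of all genes tested and 66.0% of those of at least 20 CPM, with 29.5% of all genes higher and 29.8% lower. The median log2 fold change of the 17 was 0.11. Their summed level was 3188, 3235 and 3222 CPM in the control and 3655, 3309 and 3570 CPM in the inactivated libraries, without overlap, and a ratio of means of 1.09. ATP5MC1, one of the genes for the c subunit of the membrane rotor (chr17:48892787-48895871, forward strand), had 84.5, 90.2 and 96.96 CPM in the control and 173, 143 and 161 CPM in the inactivated libraries. It rose without overlap, with a log2 fold change of 0.81 ± 0.068 (adjusted p = 2.1e-07), the largest among the respiratory chain genes tested. ATP5PD, subunit d of the peripheral stalk (chr17:75038863-75046969, reverse strand), had 104, 113 and 116 CPM against 165, 155 and 168 CPM. It too rose without overlap, with a log2 fold change of 0.55 ± 0.046 (adjusted p = 1.11e-09).

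The catalytic head of ATP synthase, F1, moved by small amounts. Of its 5 subunit genes, ATP5F1A (alpha), ATP5F1B (beta), ATP5F1C (gamma) and ATP5F1D (delta) rose with log2 fold changes of 0.17, 0.11, 0.13 and 0.19 (adjusted p = 0.00131, 0.0305, 0.0114 and 0.0275). ATP5F1E (epsilon) was not called (-0.06, adjusted p = 0.404). However, 40.7% of the exon bases of ATP5F1E are shared with SLMO2-ATP5E and TUBB1, so part of its counts may belong to them. ATP5F1A had 639, 636 and 608 CPM in the control and 726, 681 and 712 CPM in the inactivated libraries, and ATP5F1C had 159, 167 and 161 CPM against 183, 169 and 182 CPM. Neither gene's groups overlapped, although those of ATP5F1C nearly met. The stalk genes ATP5PF (subunit F6) and ATP5PB (subunit b) rose by 0.14 and 0.12 on the log2 scale (adjusted p = 0.0167 and 0.0232). ATP5PF had 78.6, 80.5 and 80.2 CPM against 93.2, 82.3 and 88.0 CPM without overlap, and 23.1% of its exon bases are shared with GABPA. The call of ATP5F1A held without any 1 library. Those of ATP5F1B, ATP5F1C, ATP5F1D, ATP5PB and ATP5PF were each lost without at least 1 library, and inactivated replicate 3 was such a library for all 5 (adjusted p = 0.13, 0.0649, 0.0978, 0.129 and 0.0525). Without inactivated replicate 1, ATP5F1B (0.0911), ATP5F1D (0.12), ATP5PB (0.0848) and ATP5PF (0.107) were not called. Leaving out control replicate 1 ended the calls of ATP5F1D (0.0517) and ATP5PB (0.0712), control replicate 2 those of ATP5F1B (0.0885), ATP5F1D (0.168) and ATP5PF (0.0521), and control replicate 3 those of ATP5F1B (0.13) and ATP5PB (0.0633). Genes of complex V called higher numbered 3 without inactivated replicate 3, 4 without inactivated replicate 1 and 5 without control replicate 2. Of all genes tested in these fits, 54.3%, 56.6% and 52.7% were called in either direction.

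The genes of the c subunit, ATP5MC1, ATP5MC2 and ATP5MC3, encode the same mature protein behind different import sequences, and their proportions differed between the groups. ATP5MC1 made up 18.3, 19.4 and 19.99% of their summed CPM in the control and 31.7, 30.3 and 31.1% in the inactivated libraries. ATP5MC2 made up 30.9, 30.7 and 31.3% against 23.9, 24.9 and 25.0%, and ATP5MC3 50.9, 49.9 and 48.7% against 44.4, 44.8 and 44.0%. None of these shares overlapped between the groups, but shares sum to 100 and are not independent. ATP5MC2 itself fell, from 143, 143 and 152 to 131, 118 and 129 CPM, with a log2 fold change of -0.21 ± 0.046 (adjusted p = 0.000406), and ATP5MC3 was not called (-0.05, 95% interval -0.14 to 0.05). The sum of the 3 genes was 463, 464 and 485 CPM in the control and 546, 472 and 517 CPM in the inactivated libraries, and these ranges overlapped.

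**Figure D2:**
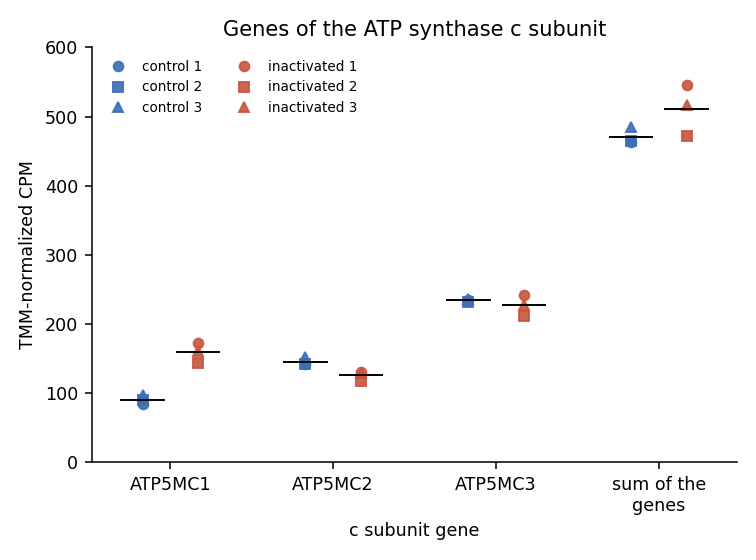
TMM-normalized CPM (vertical axis, from 0) of the c subunit genes and of their sum in each library (points; circle, square and triangle are replicates 1 to 3), with group means as black lines. ATP5MC1 lies higher and ATP5MC2 lower in all inactivated libraries (red) than in all control libraries (blue), and the sums overlap.

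The 3 nuclear genes with the largest increases among those called lie where neighbouring genes were also higher. Around ATP5MC1 and ATP5PD, both on chromosome 17, and around COX7A2 on chromosome 6, the 50 nearest tested genes on each side that are not respiratory chain genes had median log2 fold changes of 0.51, 0.49 and 0.46. Relative to these medians the 3 genes had values of 0.30, 0.05 and 0.21. For the other 68 nuclear genes the neighbours' median lay between -0.14 and 0.11, and 11 of them rose and 9 fell. The part of position in these results was not tested.

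**Figure D3:**
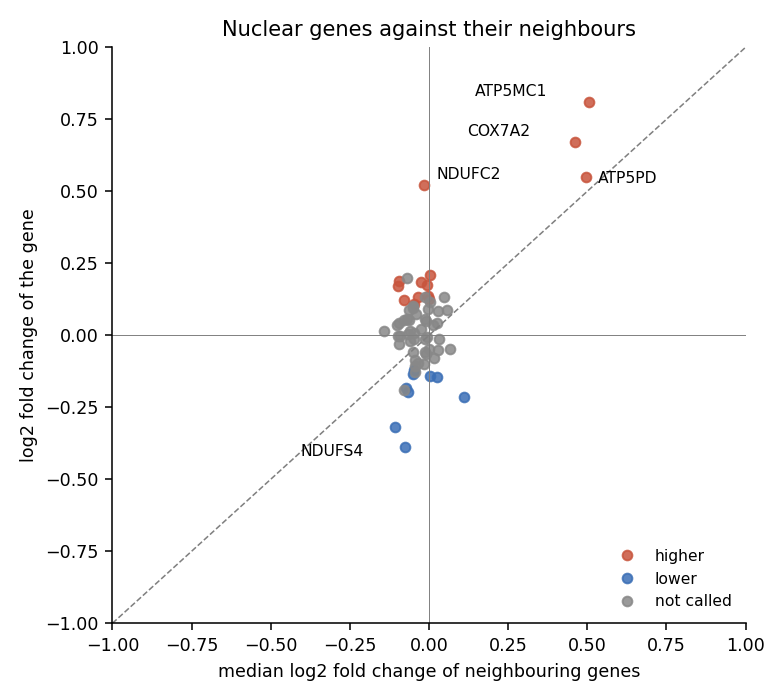
Log2 fold change of each nuclear gene (vertical axis) against the median log2 fold change of the 50 nearest tested genes on each side (horizontal axis); the dashed line marks equal values, and colours are the calls. ATP5MC1, ATP5PD and COX7A2 lie at neighbour medians of 0.46 to 0.51 and all other genes between -0.14 and 0.11; COX4I2 and NDUFA4L2 are not drawn.

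The mitochondrial mRNAs as a whole did not separate the groups. Their sum was 38171, 30858 and 32831 CPM in the control and 28036, 35916 and 31094 CPM in the inactivated libraries, with overlap and a ratio of means of 0.933. As a share of all raw counts this was 3.07 to 3.78% and 2.84 to 3.63%. Libraries of 1 group differed more for these mRNAs than for nuclear genes: the median coefficient of variation was 12.2% (control) and 13.01% (inactivated) over the 13 mRNAs, against 3.50% and 6.72% over the 71 nuclear genes. Library preparation enriched polyadenylated RNA, so these levels are of mitochondrial mRNA that passed the enrichment.

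All 13 mitochondrial mRNAs passed the filter and 1 of them, COX1, was called, beside 59.3% of all genes tested. COX1, the catalytic subunit of complex IV where oxygen is reduced (5904 to 7445 on the mitochondrial sequence), had 7690, 6080 and 6362 CPM in the control and 4605, 5763 and 5108 CPM in the inactivated libraries. It fell without overlap, with a log2 fold change of -0.38 ± 0.12 (95% interval -0.66 to -0.10, adjusted p = 0.0285). Under other settings the adjusted p was 0.0584 without inactivated replicate 2, 0.0627 without control replicate 3, 0.0541 by limma-voom, 0.0535 with upper quartile factors, 0.119 without the filter on low counts and 0.0179 by DESeq2. ND5, the proton-pumping subunit at the far end of the membrane arm of complex I (12337 to 14148), had 3385, 2731 and 2916 CPM against 1970, 2653 and 2191 CPM. Its groups did not overlap either, but with a log2 fold change of -0.41 ± 0.14 (95% interval -0.77 to -0.04) it missed the threshold (adjusted p = 0.0588; 0.0224 by DESeq2, 0.0118 without control replicate 2 and 0.0149 without inactivated replicate 2).

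The other mRNAs of complex IV, COX2 and COX3, had log2 fold changes of -0.01 (95% interval -0.28 to 0.26) and -0.03 (-0.16 to 0.09). COX2, which takes electrons from cytochrome c, had 2192, 1745 and 1759 CPM in the control and 1694, 2043 and 1931 CPM in the inactivated libraries. COX3, the third core subunit, had 4408, 3838 and 4123 CPM against 3668, 4310 and 4117 CPM. Control replicate 1 was the highest library for both, and the groups overlapped.

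The complex I mRNAs other than ND5 were not called, nor were those of complexes III and V. ND1, at the base of the membrane arm near the quinone site, had 4215, 3339 and 3587 CPM in the control and 3044, 3875 and 3402 CPM in the inactivated libraries. ND2 had 2068, 1620 and 1731 CPM against 1728, 2223 and 1927 CPM, and ND4 5946, 4635 and 4994 CPM against 4697, 6249 and 5202 CPM; both encode proton-pumping subunits. Their log2 fold changes were -0.11 (95% interval -0.40 to 0.18), 0.12 (-0.22 to 0.45) and 0.05 (-0.33 to 0.43), and the interval of ND1 includes a decrease as large as that of COX1.

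ND3 and ND4L, small membrane subunits, had 742, 627 and 676 CPM against 644, 783 and 696 CPM and 967, 743 and 799 CPM against 751, 1057 and 850 CPM. ND6, the one mRNA copied from the other strand and known to carry little or no poly(A) tail, had 297, 235 and 237 CPM in the control and 303, 431 and 251 CPM in the inactivated libraries (log2 fold change 0.36, 95% interval -0.32 to 1.04). ND6 was thus the lowest of the 13 in every library and the one with the widest interval. CYTB, the subunit of complex III that oxidizes reduced coenzyme Q, had 2655, 2227 and 2427 CPM against 2174, 2769 and 2296 CPM. In complex V, ATP6, the proton channel subunit, had 2252, 1860 and 1981 CPM against 1727, 2308 and 1958 CPM, and ATP8 1356, 1178 and 1238 CPM against 1029, 1452 and 1164 CPM. All of these overlapped between the groups; without inactivated replicate 2, ATP8 (-0.20, adjusted p = 0.00396) and CYTB (-0.12, adjusted p = 0.0485) were called lower.

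**Figure D4:**
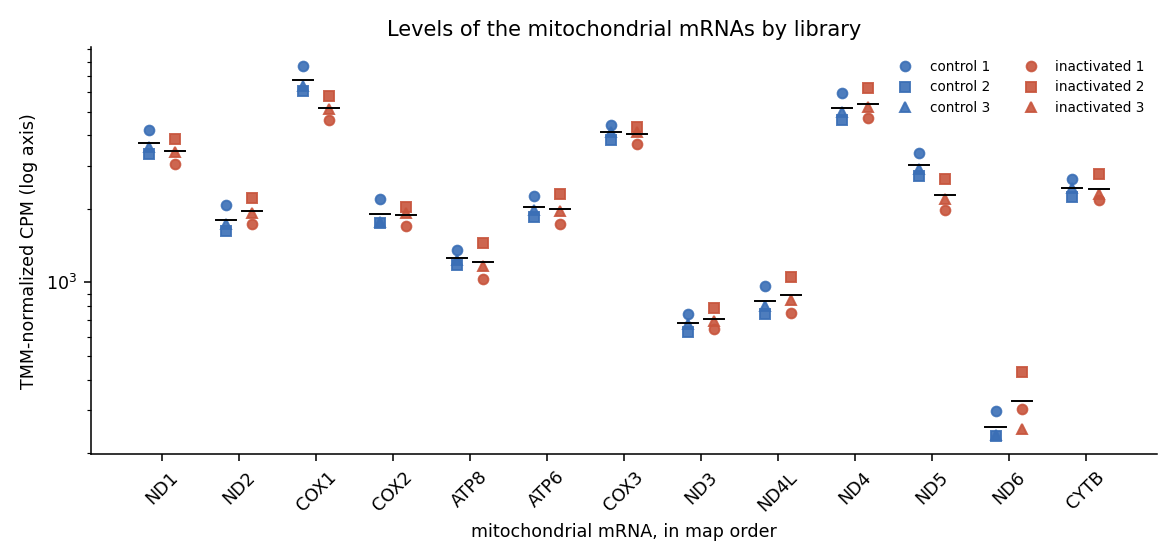
TMM-normalized CPM (log axis) of each mitochondrial mRNA, in map order, for the control (blue) and inactivated (red) libraries; circle, square and triangle are replicates 1 to 3 and black lines group means. Control replicate 1 and inactivated replicate 2 are high for nearly every mRNA, and the groups separate for COX1 and ND5.

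Since the libraries differed in total mitochondrial mRNA, the proportions among the 13 mRNAs were also compared, as a description with no test. COX1 made up 20.1, 19.7 and 19.4% of the sum in the control and 16.4, 16.0 and 16.4% in the inactivated libraries. ND5 made up 8.87, 8.85 and 8.88% against 7.03, 7.39 and 7.05%. Both shares were lower in all inactivated libraries, inactivated replicate 2 included, by a factor of 0.826 for COX1 and 0.807 for ND5. ND2 made up 5.42, 5.25 and 5.27% against 6.17, 6.19 and 6.20%. The shares of ND2, ND3, ND4, ND4L, ATP6 and ND6 were higher without overlap and those of ND1, COX2, COX3, ATP8 and CYTB overlapped; since shares sum to 100, a lower share of COX1 and ND5 raises the rest.

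Ratios between single mRNAs do not have that limit, but they come from the same counts as the shares and are no separate support. COX1 over COX2 was 3.51, 3.48 and 3.62 in the control and 2.72, 2.82 and 2.65 in the inactivated libraries, and COX1 over COX3 was 1.74, 1.58 and 1.54 against 1.26, 1.34 and 1.24. ND5 over CYTB was 1.28, 1.23 and 1.202 against 0.906, 0.958 and 0.954. All 3 ratios were lower without overlap. In the bicistronic mRNAs the partners kept their proportions within the spread between libraries: ATP8 over ATP6 was 0.602 to 0.634 in the control and 0.594 to 0.629 in the inactivated libraries, and ND4L over ND4 was 0.160 to 0.163 and 0.160 to 0.169. The exons of these partners overlap, for 22.2% of ATP8, so their counts are not fully separate.

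**Figure D5:**
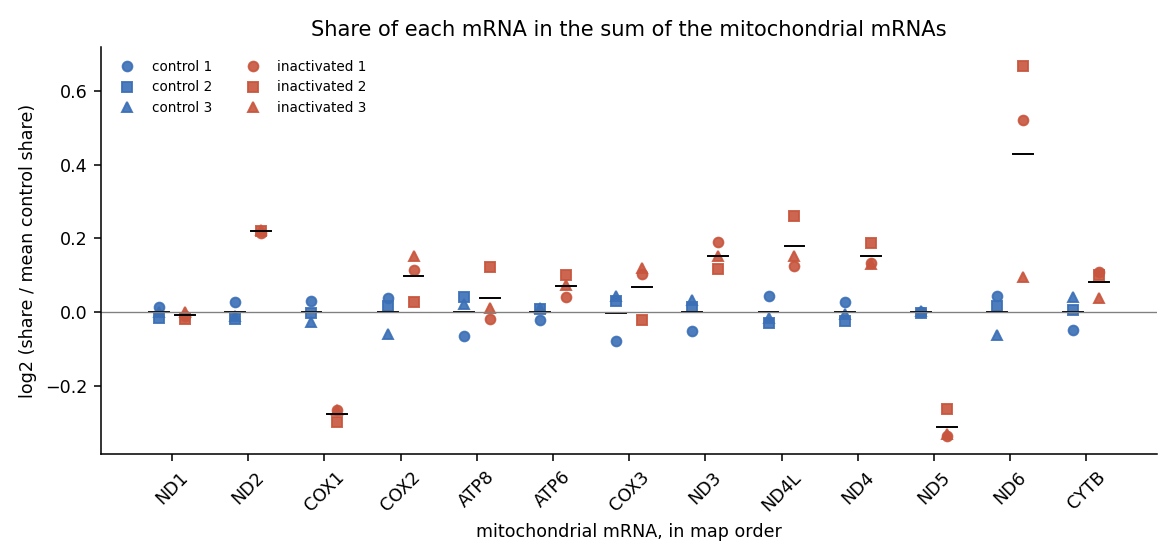
Log2 of each mitochondrial mRNA's share of the 13-mRNA sum over its mean control share (vertical axis), by library, in map order; symbols and colours as in the plot of levels. The inactivated libraries lie together below 0 for COX1 and ND5 and together above 0 for ND2, and ND6 spreads most.

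Levels of the 2 genomes were far apart. Per kilobase of exon, mean control levels of the mitochondrial mRNAs ran from 489 CPM per kb for ND6 to 6074 for ATP8, all above ATP5F1B, the highest nuclear gene tested, at 449 CPM per kb. Nuclear values per kilobase are low estimates, because the length counts all annotated exons of a gene. ATP8, of 207 bases, shares its bicistronic mRNA with ATP6, which had 2982 CPM per kb. Values per kilobase of such short genes therefore do not rank the mitochondrial mRNAs by abundance. The summed CPM of mitochondrial over nuclear genes was 4.77, 3.77 and 3.97 in the control and 3.14, 4.46 and 3.60 in the inactivated libraries. Within complexes this ratio of sums was 7.20 to 9.30 against 6.49 to 9.54 for complex I, 1.74 to 2.15 against 1.602 to 2.21 for complex III, 8.35 to 10.6 against 6.43 to 8.86 for complex IV, and 0.939 to 1.13 against 0.754 to 1.14 for complex V. All of these ranges overlapped between the groups. Median log2 fold changes were 0.02 for the 71 nuclear and -0.01 for the 13 mitochondrial genes. The 2 mitochondrial rRNAs, which are not members and largely lack poly(A) tails, were lower in sum without overlap (13180 to 16141 against 9540 to 11173 CPM).

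Not all members could be measured. Of the 17 nuclear genes that failed the filter, 12 have a second entry on an alternate locus of the assembly: SDHB, ATP5IF1, COX5B, NDUFS1, NDUFB9, NDUFS3, COX8C, NDUFB10, UQCRC2, NDUFA11, NDUFA3 and NDUFA6. None of them had more than 11 counts in a library. Among all entries, 17.5% of 1602 protein-coding genes with such a copy were tested, against 66.2% of 18156 others, so low counts of these 12 genes do not show low expression. The other 5, COX7B2, COX6A2, COX7A1, COX6B2 and ATP5MGL, have no such copy and had at most 15 counts in a library.

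Genes that build the complexes and carry electrons moved more than the subunits themselves in some cases, without a common direction. Of 19 complex I assembly factors tested 5 rose and 5 fell, of 4 for complex II 1 and 2, of 6 for complex III 2 and 1, of 22 for complex IV 5 and 5, and of 5 for complex V 3 and 1, beside 29.5% higher and 29.8% lower of all genes tested. TMEM242, which acts in assembly of complexes I and V, rose from 9.24 ± 1.03 to 18.5 ± 0.911 CPM (adjusted p = 4.86e-10). LYRM7, a factor for the Rieske protein, rose from 48.4 ± 0.609 to 64.0 ± 0.915 CPM (adjusted p = 9.56e-08), and TTC19, also of complex III, fell from 35.5 ± 2.03 to 26.8 ± 0.257 CPM (adjusted p = 2.19e-06). COX11, which delivers copper to COX1 protein, rose from 73.0 ± 2.51 to 103 ± 3.997 CPM (adjusted p = 4.49e-09). TMEM242 and COX11 lie among neighbours with medians of 0.55 and 0.52, on chromosomes 6 and 17. SDHAF4, a factor for SDHA on chromosome 6, rose by 0.43 on the log2 scale, beside a neighbour median of 0.48. Of 19 electron carriers and other entry points 5 rose and 3 fell, and log2 fold changes ran from -0.77 to 0.58. By p, COQ8A and COQ3 of coenzyme Q synthesis came first (0.49 and 0.58), beside neighbour medians of 0.35 and 0.46.

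Of 21 genes tested for mitochondrial DNA maintenance and transcription 7 rose and 9 fell, and of 21 for RNA processing and stability 5 and 5, beside 29.5% higher and 29.8% lower of all genes tested. TFAM, which packages mitochondrial DNA and starts its transcription, fell from 205 ± 3.91 to 153 ± 3.76 CPM (log2 fold change -0.42, adjusted p = 6.69e-09). TEFM, the elongation factor of the mitochondrial polymerase, rose from 12.6 ± 0.197 to 22.0 ± 0.721 CPM (0.80, adjusted p = 5.18e-10; neighbours 0.33). SUPV3L1, the helicase of the mitochondrial RNA degradosome, fell from 103 ± 2.59 to 72.2 ± 0.801 CPM (-0.51, adjusted p = 9.06e-10). Whether these levels bear on the mitochondrial mRNAs was not tested.

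Of 18 transcription factors and coactivators of respiratory genes tested, 7 rose and 5 fell. For this list and the 4 that follow, the shares over all genes tested are again 29.5% higher and 29.8% lower. PPARGC1A, the coactivator PGC-1α, fell from 5.10 ± 0.403 to 1.601 ± 0.117 CPM (log2 fold change -1.68, adjusted p = 5.32e-10), and PPARD rose from 28.0 ± 1.74 to 40.9 ± 0.899 CPM (0.55; neighbours 0.54). MYC rose from 482 ± 19.2 to 526 ± 29.1 CPM (0.13, adjusted p = 0.0216). The citric acid cycle list, which holds the 4 SDH genes, had 4 higher and 11 lower of 24 tested, with MDH2, the mitochondrial malate dehydrogenase, falling from 235 ± 5.01 to 100 ± 6.27 CPM (neighbours -0.92) and PC, which makes oxaloacetate from pyruvate, rising from 10.5 ± 0.512 to 22.98 ± 0.688 CPM. Glycolysis had 2 higher and 9 lower of 19, with log2 fold changes from -1.53 to 1.56. By p, the hexokinase HK1 (94.5 ± 5.49 to 32.6 ± 1.32 CPM) and the enolase ENO2 (120 ± 0.920 to 59.3 ± 0.556 CPM) came first. Of 30 genes for mitochondrial protein import and cristae 8 rose and 8 fell. Of 16 genes of the mitochondrial stress response 1 rose and 13 fell, with the stress transcription factors ATF5 from 69.6 ± 4.90 to 36.3 ± 0.917 CPM and DDIT3 from 11.3 ± 0.146 to 6.21 ± 0.894 CPM. The median log2 fold changes of these last 4 lists were -0.08, -0.11, 0.01 and -0.27, beside 0.0031 over all genes tested.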

How the data were processed

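Per the labels' protocols, total RNA was extracted from cell pellets, mRNA was enriched, and libraries made with the KAPA mRNA HyperPrep Kit were read as 50 bp pairs. The submitters' processing notes name STAR 2.7.2b, featureCounts 1.6.3, DESeq2 1.36.0 and build GRCh38.p14. The authors deposited raw counts per gene and lane, not normalized, with each gene's exon length in bases. Strand and multi-mapping settings are not given in the sources used here.

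Lanes of each library were summed. Genes were filtered with filterByExpr (minimum count 10, minimum total 15), scaled by TMM and compared with edgeR 4.0.16 (quasi-likelihood F test, robust, two-sided, Benjamini-Hochberg over all 14704 genes tested, threshold 0.05, biological coefficient of variation 0.0447). A gene with no read can hold up to 3 counts, and this limit covers counting error only. The alternatives were DESeq2 1.42.0, other scalings, limma-voom (limma 3.58.1), no filter, each library or lane left out, a null of 1.5-fold, and removal of a length trend (loess, span 0.5) or of the neighbours' median. Tested on simulated counts with 200 changed genes, edgeR called 74% of those set to 1.5-fold and 87% of those set to 2-fold, and 12 of its 173 calls were false. The simulation changed far fewer genes than were called in the data. It also held no change under 1.5-fold and no library set apart from its group. Its figures therefore do not rate the calls reported here.

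The members and gene lists were chosen with earlier results of these data known. Values in every library are given for the mitochondrial mRNAs, for up to 5 nuclear genes per complex and direction with the lowest p, and for alternative isoforms; other lists give up to 4 genes by p. Further genes and the background among genes of at least 20 CPM were chosen after values were seen. Some genes that this rule gave are left out of the text.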

Additional observations from a re-analysis of the deposited data

How the results depend on the processing

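With 1 library left out at a time, 8 to 30 nuclear genes were called higher (14 with all libraries), 6 to 15 lower (9) and 0 to 3 mitochondrial mRNAs (1). The 30 came without inactivated replicate 2, and the 15 without inactivated replicate 1. Of all genes tested in these fits, 52.7% to 58.7% were called in either direction, beside 59.3% with all libraries. Against a null of 1.5-fold the counts of members were 1, 0 and 0, beside 15.5% of all genes. The count of mitochondrial mRNAs was 2 by DESeq2 and 0 with upper quartile factors, with limma-voom, without the filter on low counts, with lane 1 alone and with lane 2 alone. In those fits 34.3% (without the filter) to 59.1% (limma-voom) of all genes tested were called. The cause of these changes in counts was not tested, except that leaving out a library or lane leaves fewer counts. Of the 24 called genes, 13 kept their call under every setting tested with no change as the null, and 14 kept it without any 1 library. NDUFA1 lost its call in lane 1 alone (adjusted p = 0.142) and NDUFB8 by DESeq2 (0.0664). The ratio of summed mitochondrial mRNA ran from 0.871 to 0.995 without 1 library. No called gene changed direction under any tested setting. Less the neighbours' median, 21 of 71 nuclear genes moved by more than the spread between libraries, and less a length trend 8 of 84. No paired analysis was possible because the libraries of the groups share no replicate number in the labels.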

Other observations

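Entries that matched the names but are not subunit genes were few and low. NDUFV2-AS1, an RNA antisense to NDUFV2, had 5, 5 and 6 counts in the control and 14, 15 and 19 in the inactivated libraries (log2 fold change 1.362, adjusted p = 0.00778 by edgeR's quasi-likelihood test), while NDUFV2 itself fell; the counting's strand setting is not known. NDUFB2-AS1 (log2 fold change 0.20, adjusted p = 0.616) and the pseudogene UQCRBP1 (0.42, adjusted p = 0.411) were not called. The read-through gene NDUFC2-KCTD14 had 3, 3 and 2 counts in the control and 0, 0 and 0 in the inactivated libraries, too few for the test. Both groups lie at or under the limit of 3 counts per library.

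CKM, muscle creatine kinase, was on the muscle marker list and rose from 3.88 ± 0.279 to 17.2 ± 1.18 CPM (log2 fold change 2.15, adjusted p = 6.77e-15), whereas ACTA1 stayed at or under 0.391 CPM and MYH7 at or under 0.0602 CPM, and COX6A2, the muscle form of a complex IV subunit, had no count in any library. The summed fibroblast markers were 42.5 to 46.1 CPM in the control and 33.3 to 36.8 CPM in the inactivated libraries, with COL3A1 at 0. Most of this sum was PDGFRB, which fell from 32.8 ± 1.47 to 18.9 ± 0.739 CPM (adjusted p = 1.75e-10 by edgeR), as did DCN from 3.27 ± 0.233 to 0.979 ± 0.115 CPM (7.9e-09), whereas COL1A1 rose from 8.11 ± 0.583 to 15.1 ± 1.04 CPM (3.76e-09).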
